A study of Mus musculus with 17 samples.

Results

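Interferon-stimulated genes are the genes that cells switch on when interferon reaches them. Members were chosen by name: 38 listed symbols, all 38 of which were found among the 25239 genes of the 3 count tables. By role they comprised 4 genes of signalling and regulation, 3 sensors of foreign RNA or DNA, 14 antiviral effectors, 3 guanylate-binding proteins, 4 genes of class I antigen presentation and 10 other induced genes. Bulk RNA had been sequenced from 17 libraries of DAT-cre mice, a line in which Cre recombinase is driven by the dopamine transporter gene and so acts in dopamine neurons. All 6 groups carried this allele, and the study followed them through oDASS, a protocol in which mice stimulate their own dopamine neurons with light. The labels class the mice as perseverers, called addicted, or renouncers, called non-addicted. The orbitofrontal cortex (OFC) was sampled before oDASS as brain tissue imprints, from 3 renouncers and 2 perseverers. It was sampled again afterwards as dissected bulk tissue (3 libraries of each phenotype), as was the medial prefrontal cortex (mPFC, also 3 of each). No age is stated, and it is not stated whether the libraries of a group come from different mice, nor whether 1 mouse gave several libraries. The p-values therefore measure the spread between these libraries, which may be technical.

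Type I interferons bind a receptor made of Ifnar1 and Ifnar2, and the kinases Jak1 and Tyk2 then pass the signal on. A complex that holds Stat2 and Irf9 binds the interferon-stimulated response element in promoters, while interferon gamma acts on another element, the gamma-activated site. In the brain, microglia, astrocytes, endothelium and neurons can all mount the response, and it is best known there from viral infection, ageing and neuroinflammation.

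The promoters are shown first because the members were picked by name and not by sequence. RefSeq promoter sequences of GRCm38.p6 were matched for 29 of the 38 members, and the 250 bases before each start were searched on both strands. The response element was searched as 2 copies of GAAA with any 2 bases between them, and occurred in 12 of 29 members (41.4%) and in 3.04% of 27025 genes. The letters of the gamma-activated site, TTCNNNGAA, occurred in 5 of 29 (17.2%) and in 7.18% of all genes (the first listed start of each gene). The 7 stretches below belong to members on which later results turn, and capitals mark the response element letters on either strand, overlapping copies joined. A match is a description of these letters and does not show binding. Isg15 is on chr4:156200857-156200926, minus strand; Ifit1 on chr19:34640755-34640824, plus strand; Ifit3 on chr19:34583377-34583446, plus strand.
Isg15: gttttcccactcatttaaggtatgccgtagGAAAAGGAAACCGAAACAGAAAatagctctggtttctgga
Ifit1: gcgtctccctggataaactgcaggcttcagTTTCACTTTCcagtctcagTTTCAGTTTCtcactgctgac
Ifit3: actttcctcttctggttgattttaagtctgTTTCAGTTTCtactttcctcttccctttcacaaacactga
Oas1a is on chr5:120907526-120907575, minus strand, and Rsad2 on chr12:26456533-26456602, minus strand. Gbp2 is on chr3:142620574-142620643 and B2m on chr2:122147518-122147587, both on the plus strand.
Oas1a: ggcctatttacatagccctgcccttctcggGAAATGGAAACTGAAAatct
Rsad2: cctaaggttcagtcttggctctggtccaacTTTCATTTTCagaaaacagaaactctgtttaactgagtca
Gbp2: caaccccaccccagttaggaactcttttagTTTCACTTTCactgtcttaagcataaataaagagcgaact
B2m: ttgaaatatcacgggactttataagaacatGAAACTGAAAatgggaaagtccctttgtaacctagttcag
The window of Isg15 held 3 overlapping copies, and those of Ifit1, Ifit3 and Oas1a held 2 each. Stat2, Gbp3, Gbp7, Bst2 and Trim30a had copies as well. In the windows of Irf7, Cmpk2, Ifitm3 and Psmb8 these letters were not found.

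Dissections held 12392731 to 20945108 counts, of which haemoglobin genes took 0.0253% to 0.0787%. Imprints held 8960549 to 10662666 counts, and haemoglobin took 29.7% in renouncer 1 and up to 90.7% in the other 4, so that 980475 to 6556037 counts remained outside it. Markers of excitatory neurons summed to 3477 CPM of the library total (CPM are counts scaled so that every library has the same total) in imprint renouncer 1 and to 119.3 to 334.7 CPM in the other 4 imprints. For dissections, CPM here are scaled by TMM, which sets libraries to a common level through the bulk of their genes. After TMM, summed excitatory markers were 3918 to 7013 CPM in dissections and 2969 to 5027 CPM in imprints, which overlap. By library total the dissections stood at 4014 to 6935 CPM, so the gap to the imprints depends on the scale. Imprints and dissections also differ in stage, so stage and way of collection cannot be told apart. In the labelled cortex of the dissections the defining markers were thus present, while 4 imprints were mostly blood by count.

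In the dissections, 30 of 38 members had counts in all 12 libraries. Together they took 0.0384% to 0.0680% of a dissection library. Per gene length, in RPKM, B2m was highest at 193 ± 26.1 in the OFC and 156 ± 13.2 in the mPFC (SD, n = 6 each). B2m is the light chain of class I molecules. Next came Ifi27, a mitochondrial interferon-induced protein, at 51.0 ± 10.7 RPKM in the OFC and 37.9 ± 5.32 in the mPFC. Ifitm3, which blocks virus entry at membranes, followed at 26.2 ± 11.2 and 18.4 ± 2.23 RPKM. The order of the 7 highest members by mean was the same in both regions, continuing with Cmpk2 (15.2 and 14.1 RPKM), Lgals3bp (13.2 and 9.70), Psmb8 (12.3 and 8.51) and Bst2 (9.92 and 8.51). From Cmpk2 down to Bst2, the ranges of neighbours in that order overlapped in both regions. Higher up, Ifi27 (lowest 40.2 RPKM) and Ifitm3 (highest 48.5) overlapped in the OFC. In the mPFC, Ifitm3 (lowest 15.0 RPKM) and Cmpk2 (highest 15.8) did. At the other end, Oas2, Mx1, Oasl1 and Mx2 had means of at most 0.174 RPKM in either region, and RefSeq classes Mx1 and Mx2 as transcribed pseudogenes in this genome.

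Among the antiviral effectors, mean levels and variation differed widely. Cmpk2, a mitochondrial nucleotide kinase, varied least of all 38 members over the 12 dissections, at 39.6 to 52.1 CPM with a coefficient of variation of 9.27%. Its neighbour Rsad2, the antiviral protein viperin, lies beside it on chromosome 12, with 12665 bases between the genes (Rsad2 at 26442743 to 26456452, Cmpk2 at 26469117 to 26479837, GRCm38). Rsad2 ran from 0 to 4.30 CPM, with a coefficient of variation of 71.5%. Among members with a mean of at least 1 CPM, Ifit1 varied most, from 0.878 to 17.1 CPM (116.4%). Its highest value was that of OFC renouncer 2, without which Ifit1 ran from 0.878 to 5.02 CPM. That library was also highest for Rsad2, Isg15, Usp18, Irf9, B2m and Psmb8, but not for Cmpk2, Stat2 or Tap1. The coefficients were not taken without it. Isg15, the ubiquitin-like modifier, lay between 0.713 and 8.10 CPM and Usp18, the protease that removes it, between 0 and 8.17 CPM. The signalling genes were steadier: Stat2 lay between 5.76 and 18.5 CPM (33.8%) and Irf9 between 4.60 and 14.7 CPM (31.6%). Class I genes were steady to intermediate, with B2m at 123 to 185 CPM (15.8%), Tap1, the peptide transporter, at 1.43 to 5.74 (36.04%) and Psmb8, an immunoproteasome subunit, at 7.39 to 26.3 (39.0%). Ifit3 shares 51.2% of its 50-base windows with Ifit3b and Oas1a shares 57.6% with Oas1g, so that their counts are uncertain where reads could be split.

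**Figure D1:**
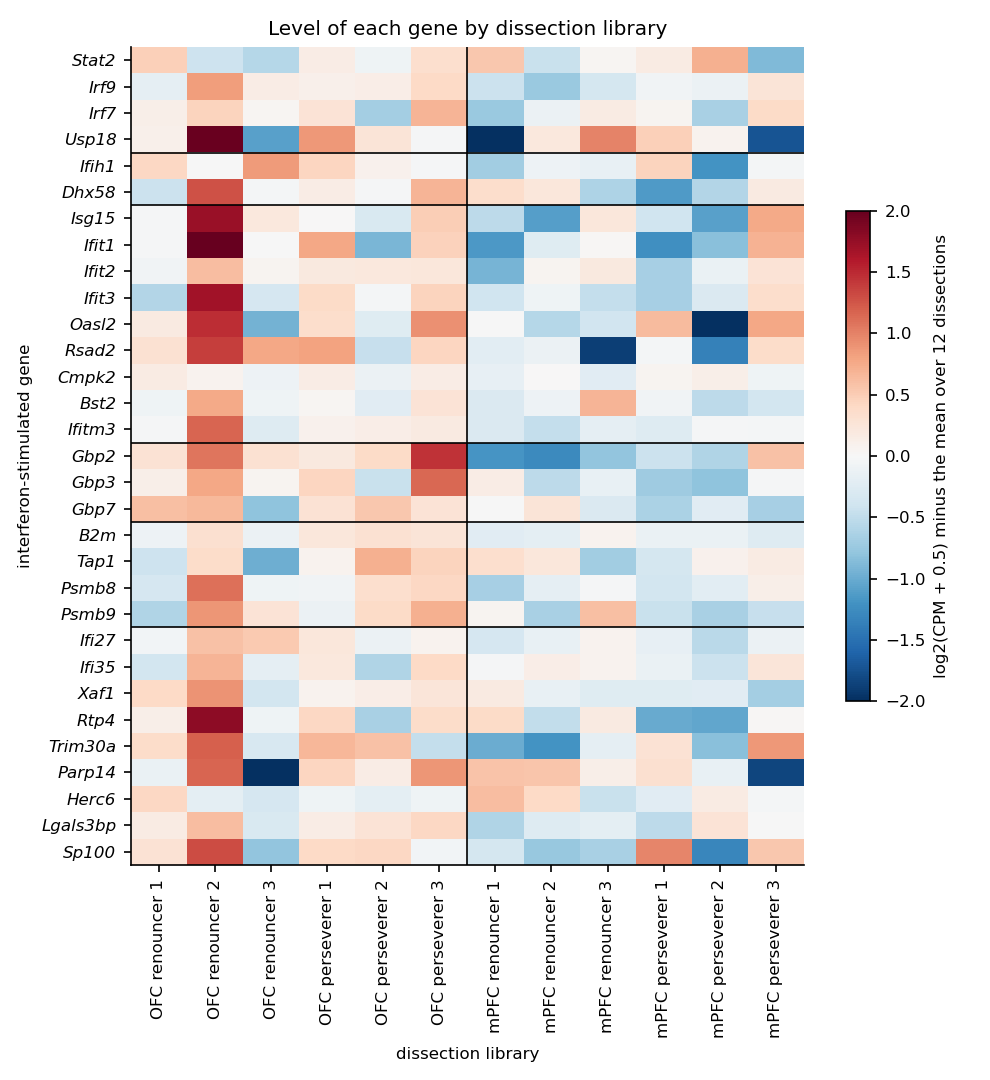
Heat map of the 31 members with a mean of at least 1 CPM over the dissections, in rows grouped by role, against the 12 libraries in columns. Colour is log2(CPM + 0.5) minus the row mean; most rows are red in OFC renouncer 2.

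One OFC library stood apart in these genes. OFC renouncer 2 was the highest of the 6 OFC dissections in 24 of the 32 members with a mean of at least 1 CPM there, against 12.5% of 13970 genes at that level. Its median log2 difference from the mean of the other 5 was 0.75 over members and -0.06 over all genes. Ifit1 stood at 17.1 CPM there and at 1.22 to 5.02 CPM in the other 5 OFC dissections, 5.49 times their mean. Isg15 was at 8.10 against 1.60 to 3.16 CPM (3.53 times), and Ifit3 at 32.0 against 6.29 to 13.4 CPM (3.24 times). Oas1a, one of the enzymes that make the activator of RNase L, was at 4.44 against 0.204 to 0.842 CPM (11.0 times, 63 counts against 33 in the other 5 together). Zbp1, a sensor of left-handed nucleic acid, had 65 counts there and 24 in the other 5. Not every member followed: Cmpk2 was at 48.7 CPM (1.01 times the mean of the others), Irf7, a regulator of interferon genes, at 3.52 (1.27 times) and Stat2 at 8.17 (0.683 times). In the same library the markers of meningeal fibroblasts summed to 325.7 CPM, the highest of the 6 OFC dissections, whose median was 99.9 and lowest 60.7, and those of microglia to 1733 CPM, against 1251 to 1597. The part of these cells in the levels was not tested. In the mPFC, perseverer 3 was highest in 11 of 30 members and in 20.4% of genes, with Gbp2 at 3.41 times and Isg15 at 2.86 times the mean of the other 5. Several of the results below are therefore also given without OFC renouncer 2, without mPFC perseverer 3 or without both.

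**Figure D2:**
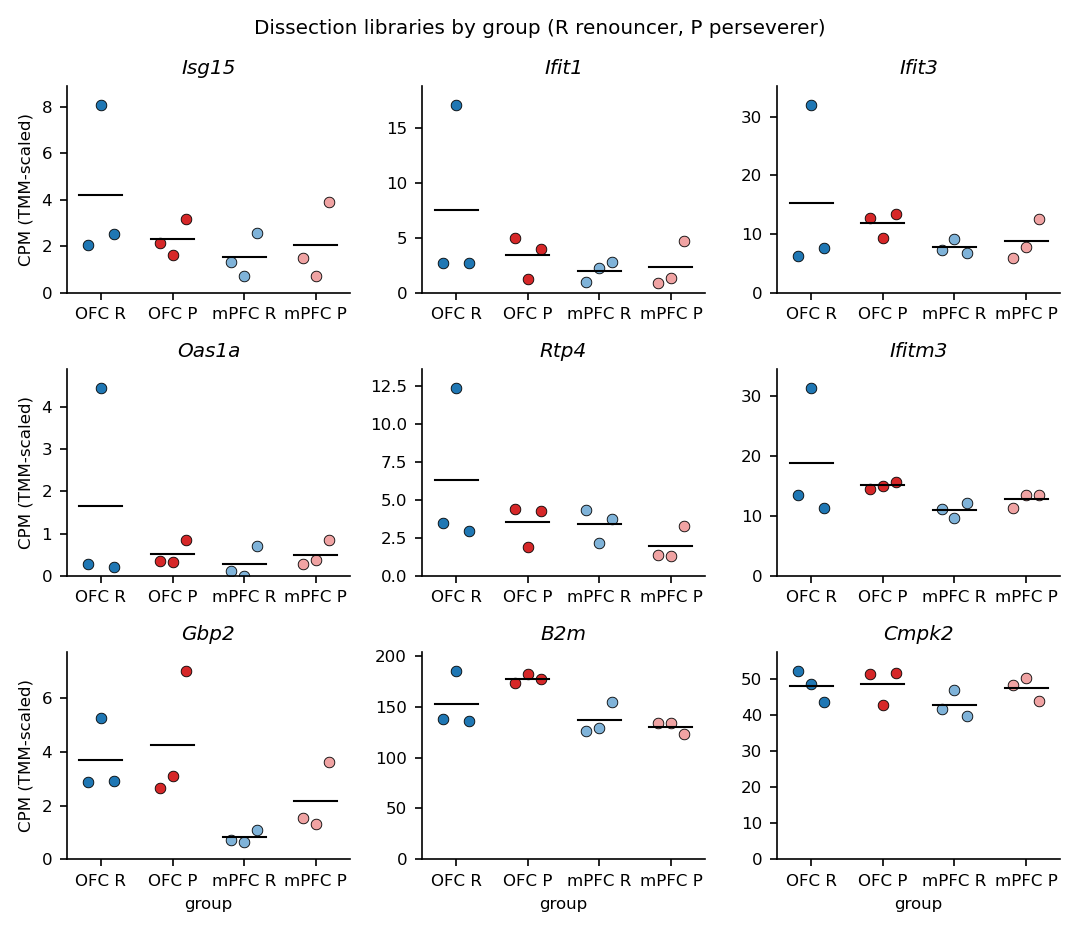
TMM-scaled CPM of 9 members in each dissection library (points, linear axes from 0), by region and phenotype, with a line at the mean of each group of 3. OFC renouncer 2 is the high point of Isg15, Ifit1, Ifit3, Oas1a, Rtp4 and Ifitm3, while Cmpk2 stays between 39.6 and 52.1 CPM.

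Between the regions, most members lay higher in the OFC than in the mPFC, and none passed the threshold of an adjusted p under 0.05. Of 33 members tested, 30 had a positive fold change, with a median log2 fold change of 0.54, against 50.3% positive and a median of 0.00 over the 15025 genes tested. The edgeR quasi-likelihood test called 0 of 33 members and 1.76% of all genes (0.892% higher and 0.865% lower in the OFC); 9 members (27.3%) and 14.3% of genes had an unadjusted p under 0.05. DESeq2 called 1 member, Gbp2, and an edgeR fit with the replicate number as a block called Gbp2 and Ifi27. In no member did the 6 OFC libraries all lie above, or all below, the 6 mPFC libraries, against 1.01% and 0.885% of genes. The summed level of the 38 members was 501.2 ± 91.9 CPM in the OFC and 390.8 ± 18.2 in the mPFC (SD, n = 6 each), with ranges of 415.7 to 670.1 and 371.8 to 421.3. OFC renouncer 2 gave the upper end, and without it the OFC range was 415.7 to 525.8.

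The guanylate-binding proteins, GTPases that attack membranes around pathogens, all had higher medians in the OFC. Gbp2 ranged from 2.66 to 7.02 CPM in the OFC with a median of 3.01, and from 0.634 to 3.62 CPM in the mPFC with a median of 1.20. Of the 6 mPFC libraries, 5 lay below every OFC library, and mPFC perseverer 3 lay inside the OFC range. The log2 fold change was 1.51 ± 0.41 (SE, n = 6 and 6; edgeR adjusted p = 0.0758). It passed in 4 of 17 alternatives, among them DESeq2 (adjusted p = 0.00792), without mPFC perseverer 3 (1.90, edgeR adjusted p = 0.0124) and without both libraries named above (1.68, adjusted p = 0.0403). Over these 17 alternatives, the adjusted p of Gbp2 ran from 0.00792 to 0.241 with a positive fold change in each. Gbp3 had a median of 8.26 CPM in the OFC (4.81 to 15.4) and of 5.25 in the mPFC (3.64 to 7.51), a log2 fold change of 0.78 ± 0.30 (edgeR adjusted p = 0.229). Gbp7 had medians of 7.85 and 4.69 CPM and overlapped as well.

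Among class I genes, B2m lay between 136 and 185 CPM in the OFC with a median of 176, and between 123 and 155 CPM in the mPFC with a median of 132. Its log2 fold change was 0.29 ± 0.11 (edgeR adjusted p = 0.23), and mPFC renouncer 3 was the only mPFC library inside the OFC range. Of the other induced genes, Ifi27 had a median of 63.5 CPM in the OFC (53.1 to 86.6) and 51.3 in the mPFC (39.3 to 60.0), a log2 fold change of 0.41 ± 0.14 (edgeR adjusted p = 0.178). It passed in 1 of its 17 alternatives, over which the adjusted p ran from 0.0179 to 0.382. Lgals3bp, a secreted glycoprotein that binds galectin-3, had a fold change of 0.44 ± 0.18 (edgeR adjusted p = 0.26). In signalling, Irf9 lay between 7.06 and 14.7 CPM in the OFC and between 4.60 and 9.66 in the mPFC, a log2 fold change of 0.52 ± 0.22 (edgeR adjusted p = 0.288). Its partner Stat2 did not share the direction, with medians of 11.4 CPM in the OFC and 11.99 in the mPFC. The remaining members with a negative fold change were Herc6, a ligase of the Isg15 pathway, with medians of 15.9 CPM in the OFC and 18.4 in the mPFC, and Ifi44. The regions overlapped in all of these genes.

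Group means leaned toward the OFC in both phenotypes, which share no library. In renouncers, 28 of 33 members had a higher mean in the OFC than in the mPFC, against 54.0% of genes. For perseverers it was 30 of 33, against 51.6%. The renouncer count includes OFC renouncer 2, the library that stood apart, and was not taken within renouncers without it. The counts that follow pool both phenotypes. Without OFC renouncer 2 and mPFC perseverer 3, 27 of 34 members tested were positive with a median of 0.33, against 52.2% and 0.01 over all genes. Without OFC renouncer 2 alone the median was 0.23, with 27 of 35 positive, against -0.003 and 49.5% over all genes. Markers of oligodendrocytes moved with region: 10 of 10 were positive with a median log2 fold change of 0.73, and their sum ran from 5971 to 19520 CPM in the OFC and from 2140 to 8251 in the mPFC, with no marker at 0. Of the microglial markers 7 of 14 were positive, with sums of 1251 to 1733 CPM in the OFC and 1177 to 1587 in the mPFC, while 8 of 12 meningeal fibroblast markers were positive with a median of 0.30. Of the astrocyte markers 9 of 10 were positive and 1 was called higher, with sums of 7311 to 10030 CPM in the OFC and 5835 to 8126 in the mPFC, where 5 of 6 libraries lay below every OFC library. The part of oligodendrocytes and astrocytes in the members' levels was not tested, and in bulk tissue fewer cells of a type and less RNA per cell cannot be told apart.

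**Figure D3:**
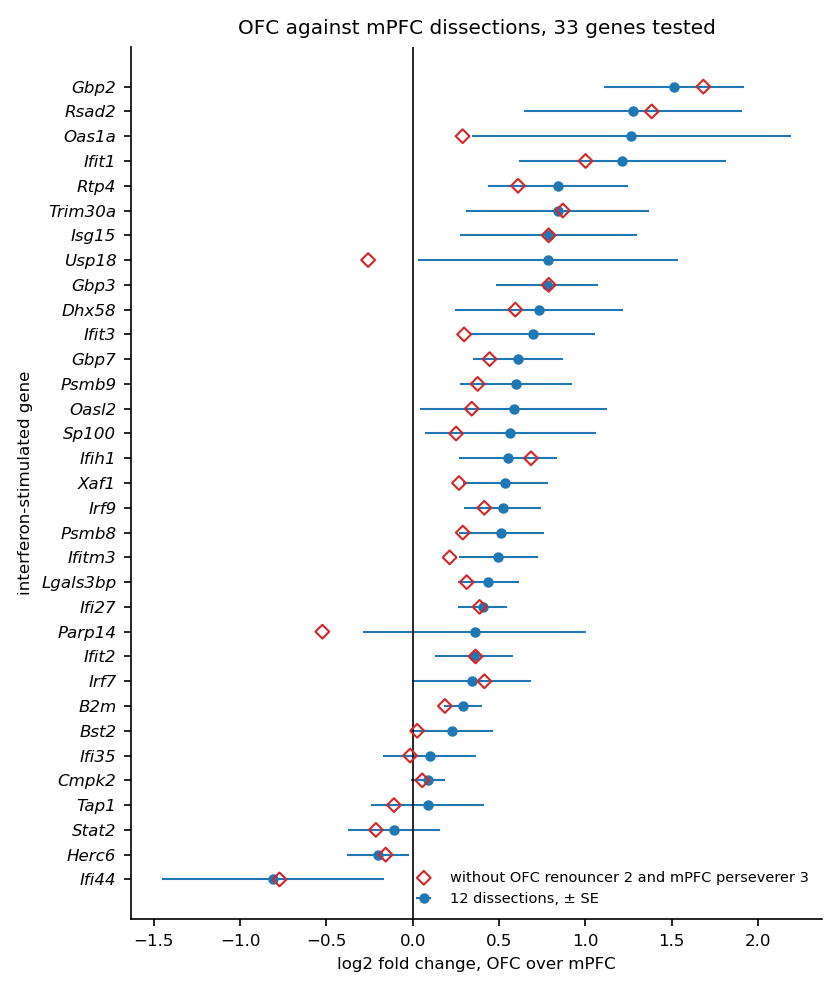
Log2 fold change of OFC over mPFC for the 33 members tested, with bars of 1 SE over the 12 dissections (filled) and with OFC renouncer 2 and mPFC perseverer 3 left out (open). Filled points lie right of 0 in 30 members, and the open points of Usp18 and Parp14 are among those left of it.

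Between phenotypes in the OFC dissections, members lay on both sides of 0 and none passed. Of 31 members tested, 10 were higher and 21 lower in perseverers, with a median log2 fold change of -0.12, against 0.00 over 14621 genes. The edgeR test and DESeq2 each called 0 members and 0% of genes; at an unadjusted p under 0.05 edgeR gave 0 members and 2.58% of genes. No member separated the 3 perseverers from the 3 renouncers, against 5.47% of genes higher and 3.72% lower. Tap1 was at 3.48, 5.74 and 4.70 CPM in perseverers and at 2.35, 4.44 and 1.43 in renouncers, a log2 fold change of 0.78 ± 0.42 (edgeR adjusted p = 0.951). The groups overlapped through OFC renouncer 2. Isg15 was at 2.13, 1.60 and 3.16 CPM in perseverers and at 2.07, 8.10 and 2.51 in renouncers, a log2 fold change of -0.87 ± 0.54 (edgeR adjusted p = 0.951). Ifit1 was at 5.02, 1.22 and 3.93 against 2.69, 17.1 and 2.72 CPM (-1.15 ± 0.76), and Rtp4, a chaperone of receptors, at 4.43, 1.88 and 4.28 against 3.51, 12.4 and 2.99 (-0.83 ± 0.54). In all 3 the negative sign came from 1 library: without OFC renouncer 2 the log2 fold changes were 0.03 for Isg15, 0.35 for Ifit1 and 0.14 for Rtp4. Then 29 of 33 members were higher in perseverers, with a median of 0.35 and 0 called, against 48.5% of genes and a median of -0.01. B2m was at 174, 182 and 178 CPM in perseverers and at 138, 185 and 136 in renouncers (0.23 ± 0.17). Ifi27 was at 66.9, 53.1 and 60.1 against 55.2, 86.6 and 82.5 CPM (-0.30 ± 0.20). Meningeal fibroblast markers lay lower in OFC perseverers in 11 of 12 genes, with a median of -0.49 and 0 called. Without OFC renouncer 2 they turned, with 10 of 12 higher in perseverers and a median of 0.26, and their part in the members' values was not tested.

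Between phenotypes in the mPFC, 17 of 32 members were higher and 15 lower in perseverers, with a median of 0.04 against 0.00 over 14375 genes. Again edgeR and DESeq2 called 0 members and 0% of genes, with 0 members and 4.45% of genes at an unadjusted p under 0.05 in edgeR. Gbp2 and Irf9 lay higher in all 3 perseverers than in all 3 renouncers and Xaf1 lower, against 5.68% and 5.22% of genes, so that 3 members of 32 lie near the background. These counts use the scaling of the 6 mPFC libraries alone; on the scale of the values printed here, set over all 17 libraries, Xaf1 overlapped narrowly, at 3.31, 3.34 and 2.32 CPM in perseverers and 4.62, 3.57 and 3.34 in renouncers. Gbp2 was at 1.55, 1.31 and 3.62 CPM in perseverers and at 0.721, 0.634 and 1.09 in renouncers, a log2 fold change of 1.44 ± 0.69 (edgeR adjusted p = 0.943). Irf9 was at 7.63, 7.34 and 9.66 against 5.82, 4.60 and 6.21 CPM (0.59 ± 0.31). For both, the highest value was that of perseverer 3, and for Gbp2 it was well above the other 5. Trim30a, a TRIM-family regulator of the response, was at 2.03, 0.654 and 3.28 CPM against 0.541, 0.396 and 1.32 (1.44 ± 0.80). Sp100, a nuclear body protein, was at 5.13, 0.654 and 3.67 against 1.74, 1.19 and 1.32 CPM (1.17 ± 0.70). Perseverer 2 lay among the renouncers for Trim30a and below all 3 of them for Sp100. Psmb9, an immunoproteasome subunit, was at 2.90, 2.47 and 2.88 CPM in perseverers and at 4.32, 2.46 and 6.53 in renouncers (-0.67 ± 0.46). Without perseverer 3 the median of the members was -0.17, with 11 of 32 positive, against -0.01 and 49.5% over all genes. Meningeal fibroblast markers lay higher in mPFC perseverers in 11 of 12 genes, with a median of 0.50 and 0 called. Their sum was highest in perseverer 3 at 145.1 CPM, and without it 6 of 12 were higher with a median of 0.03. Their part was not tested.

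The difference between phenotypes was also compared between the regions, as the fold change in the OFC minus that in the mPFC. Of 33 members 12 were positive, with a median of -0.18 against 0.00 over 15025 genes, and edgeR and DESeq2 called 0 members and 0% of genes. At an unadjusted p under 0.05 edgeR gave 0 members and 1.5% of genes. The members with the smallest p were Trim30a (-1.68 ± 0.98), Irf9 (-0.68 ± 0.42), Gbp2 (-1.20 ± 0.77), Sp100 (-1.44 ± 0.93), Oas1a (-2.58 ± 1.74) and B2m (0.30 ± 0.22), each with an edgeR adjusted p of 0.99999. The value of Oas1a turned to 0.17 without OFC renouncer 2. Without it 22 of 35 members were positive, with a median of 0.13 against 0.01 over all genes. Leaving out mPFC perseverer 3 instead gave 13 of 34 positive, with a median of -0.11 against 0.04. All 12 meningeal fibroblast markers were negative in this comparison, with a median of -1.09 and 0 called, and without OFC renouncer 2 9 of 12 were negative with a median of -0.24.

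Between phenotypes in the imprints, taken before oDASS, 18 of 32 members were higher in the 2 perseverers than in the 3 renouncers, with a median log2 fold change of 0.38 against -0.03 over 10530 genes. The edgeR test and DESeq2 called 0 members and 0% of genes, with 0 members and 1.72% of genes at an unadjusted p under 0.05 in edgeR. With 2 libraries against 3, a count of 0 does not show that levels were alike. After TMM scaling, Stat2 and Psmb8, 2 of 32 members (6.25%), lay higher in both perseverers than in all 3 renouncers, against 8.29% of genes. No member lay lower without overlap, against 8.02% of genes. The log2 fold changes with the smallest p were those of Stat2 (1.73 ± 1.29), Gbp2 (1.65 ± 1.27), Gbp7 (1.47 ± 1.21), Psmb8 (0.73 ± 0.60), Lgals3bp (-0.84 ± 0.77) and Gbp3 (0.87 ± 0.85), each with an edgeR adjusted p of 0.999885. In CPM of the library total, Psmb8 was at 28.1 and 8.18 in perseverers and at 31.4, 6.47 and 10.2 in renouncers. On that scale its groups overlapped, with renouncers 1 and 3 above perseverer 2. Stat2 overlapped there too, at 3.35 and 0.606 in perseverers and at 10.2, 0 and 0.0954 in renouncers. Rsad2, second to B2m in mean RPKM in the imprints, was at 345 and 528 CPM of the library total in perseverers and at 103, 693 and 227 in renouncers. The spread between renouncers was thus wider than the difference between phenotypes. Without imprint renouncer 2 all 30 members tested were positive, with a median of 1.29 and 0 called, against 49.2% and -0.02 over all genes. Without renouncer 1 the median was -0.18 with 11 of 26 positive, against 0.002 and 50.2%. With library totals as the scale 12 of 32 were positive, with a median of -0.60 against -1.79 over all genes. Lymphocyte markers lay higher in perseverers in 10 of 10 genes tested, with a median of 1.17 and 0 called, and their part was not tested.

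Between imprints and OFC dissections, 28 of 36 members were higher in the imprints and none lower after TMM scaling, but the number and the direction depended on the scaling. On every scale tried 4 members were called higher: Rsad2, Isg15, Irf7 and Sp100. After TMM scaling edgeR called 33.5% of 15229 genes (15.6% higher and 17.9% lower) and 77.8% of members, and 14 members, against 8.52% of genes, lay higher in all 5 imprints than in all 6 OFC dissections. None lay lower in all 5, against 15.7%. At an unadjusted p under 0.05 there were 31 members and 43.6% of genes. The median log2 fold change was 2.98 over members and -0.16 over all genes. With totals outside haemoglobin as the scale, 20 members were called, all higher, with medians of 1.92 and -0.80. With library totals alone, 7 members were called, 4 higher and 3 lower, with medians of -0.56 and -2.82 and 13 of 36 members positive. On that scale 357 genes were called higher and 10133 lower, against 2374 and 2732 after TMM.

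Rsad2 had 957, 7388 and 2385 counts in renouncer imprints 1, 2 and 3 and 3091 and 5229 in perseverer imprints 1 and 2, against 0 to 61 counts in any dissection. In CPM of the library total these were 103, 693, 227, 345 and 528. Every imprint was far above every OFC dissection on all scales. The log2 fold change was 11.82 ± 1.18 after TMM (edgeR adjusted p = 7.3e-06), 10.55 by totals outside haemoglobin and 7.34 by library totals. Isg15 had 239, 1226 and 515 counts in renouncer imprints and 579 and 651 in perseverer imprints, or 25.6 to 114.98 CPM of the library total, against 1.58 to 8.22 in OFC dissections. Its log2 fold changes were 8.69 ± 0.98 (edgeR adjusted p = 2e-05), 7.47 and 4.33 in the same order of scales. Irf7 was at 21.98, 73.9 and 43.8 CPM of the library total in renouncer imprints and at 22.8 and 85.5 in perseverer imprints, with fold changes of 8.58 ± 0.99 (edgeR adjusted p = 2.39e-05), 7.31 and 4.12. Sp100 was at 13.9, 16.2, 6.87, 27.8 and 13.4 CPM of the library total, against 1.11 to 6.64 in OFC dissections. On that scale its lowest imprint, renouncer 3, thus lay only narrowly above the highest dissection, OFC renouncer 2. The log2 fold changes of Sp100 were 6.23 ± 0.72 (edgeR adjusted p = 2.48e-05), 5.14 and 2.26. These 4 genes were called higher in all 18 alternatives.

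A second set was called by TMM and by totals outside haemoglobin, and not by library totals. B2m was at 1031, 110.9 and 118.7 CPM of the library total in renouncer imprints and at 223 and 90.1 in perseverer imprints, against 130.2 to 187.9 on the same scale in OFC dissections. Its log2 fold change was 3.81 ± 0.26 after TMM (edgeR adjusted p = 2.98e-08) and 0.77 by library totals (adjusted p = 0.422). Ifitm3 behaved alike, with 4.32 ± 0.44 (edgeR adjusted p = 2.46e-06) and 0.85 (adjusted p = 0.379), as did Psmb8 (3.56 ± 0.39 and 0.18) and Tap1 (3.70 ± 0.46 and 0.43). Oasl2, of the same family as Oas1a, stood at 5.75 ± 0.82 and 1.54. Irf9 (2.47 ± 0.36), Psmb9 (3.14 ± 0.48) and Xaf1 (2.98 ± 0.48) turned to -0.80, -0.35 and -0.58 by library totals, which were not called.

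Not called after TMM scaling were Ifit2, Ifit3, Stat2, Cmpk2, Ifih1, Dhx58, Parp14 and Mx2, while Mx1 and Oas2 had too few counts to be tested. Ifit2, which with Ifit1 and Ifit3 forms a complex on foreign RNA, was at 6.65, 0.469 and 0 CPM of the library total in renouncer imprints and at 1.67 and 0.505 in perseverer imprints. All were below the 10.6 to 17.7 CPM of the library total in the OFC dissections. Ifit3 was at 7.29, 0.188 and 0.191 and at 1.79 and 0.101 CPM, and Cmpk2 at 25.0, 4.78 and 3.91 and at 5.91 and 4.34 CPM. Rsad2 and Cmpk2, next to each other on chromosome 12, thus differed: Rsad2 had the highest fold change by library totals and Cmpk2 one of the 3 lowest. By library totals Ifit3 (-3.02), Ifit2 (-2.94) and Cmpk2 (-2.57) were called lower (edgeR adjusted p = 0.0179, 0.0205 and 0.0194). The median over all genes on that scale was -2.82, with 5.42% positive, so these 3 members lay near the bulk of genes. By totals outside haemoglobin the fold changes of Ifit3, Ifit2 and Cmpk2 were -1.18, -0.99 and -0.19, against a median of -0.80 over all genes, and none was called.

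Among the 5 imprints, the levels followed different libraries. Renouncer 1, with 29.7% haemoglobin, was highest per library total in 22 of the 31 members with a mean of at least 1 CPM, and in 96.4% of 11855 genes. This order depended on the scale: after TMM renouncer 1 was highest in 0 and lowest in 18 of 36 members, and outside haemoglobin highest in 2 and lowest in 13, while renouncer 2 was highest in 25 after TMM. Per library total, Rsad2 and Isg15 were lowest in renouncer 1 and highest in renouncer 2, which had the most haemoglobin. On that scale B2m, Ifitm3 and Lgals3bp were highest in renouncer 1. Markers of blood moved with the contrast: after TMM scaling 12 of 12 red cell, 8 of 8 platelet, 10 of 10 neutrophil and monocyte and 10 of 11 lymphocyte genes were called higher in the imprints, and so were 11 of 14 microglial genes. By library totals 11 red cell, 8 platelet, 7 neutrophil and monocyte and 10 lymphocyte genes were still called higher, whereas 0 microglial genes were called higher and 7 lower. On that scale most genes tested were called lower, with a median log2 fold change of -2.82 and 5.42% positive over all genes. The 7 microglial genes thus do not stand out from the rest. In CPM of the library total, lymphocyte markers summed to 57.8 to 308 in the imprints, and neutrophil and monocyte markers to 51.1 to 2751, while in the OFC dissections the sums were 2.09 to 4.17 and 23.5 to 38.8. Ms4a1, a B cell marker, was at 0 in the OFC dissections. The part of blood cells in the members' levels was not tested, and it cannot be told apart from stage and collection.

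**Figure D4:**
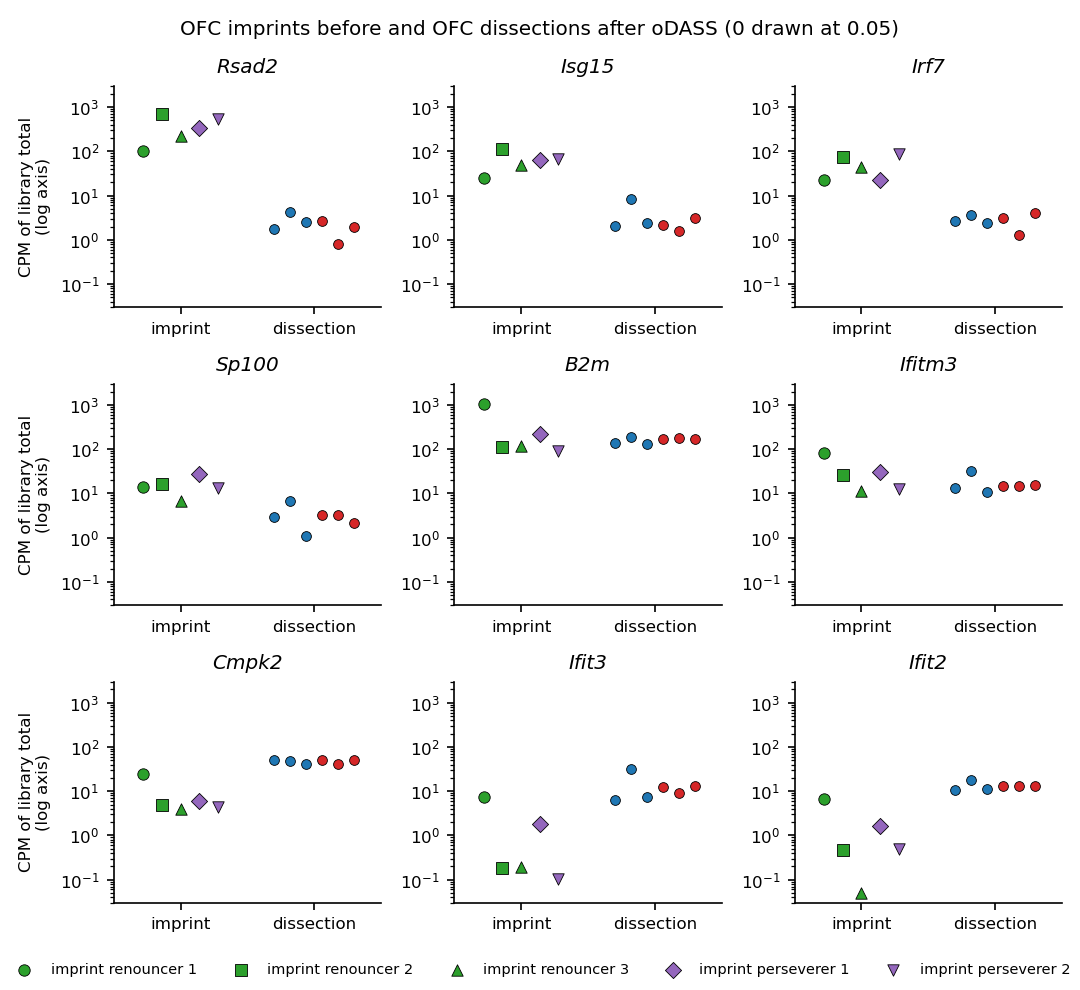
CPM of the library total on log axes for 9 members in the 5 OFC imprints (green renouncers, purple perseverers, 1 symbol per library) and the 6 OFC dissections (blue renouncers, red perseverers), with 0 drawn at 0.05. Rsad2, Isg15, Irf7 and Sp100 lie above the dissections in each imprint, Sp100 only narrowly in renouncer 3, while Cmpk2 and Ifit2 lie below them.

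**Figure D5:**
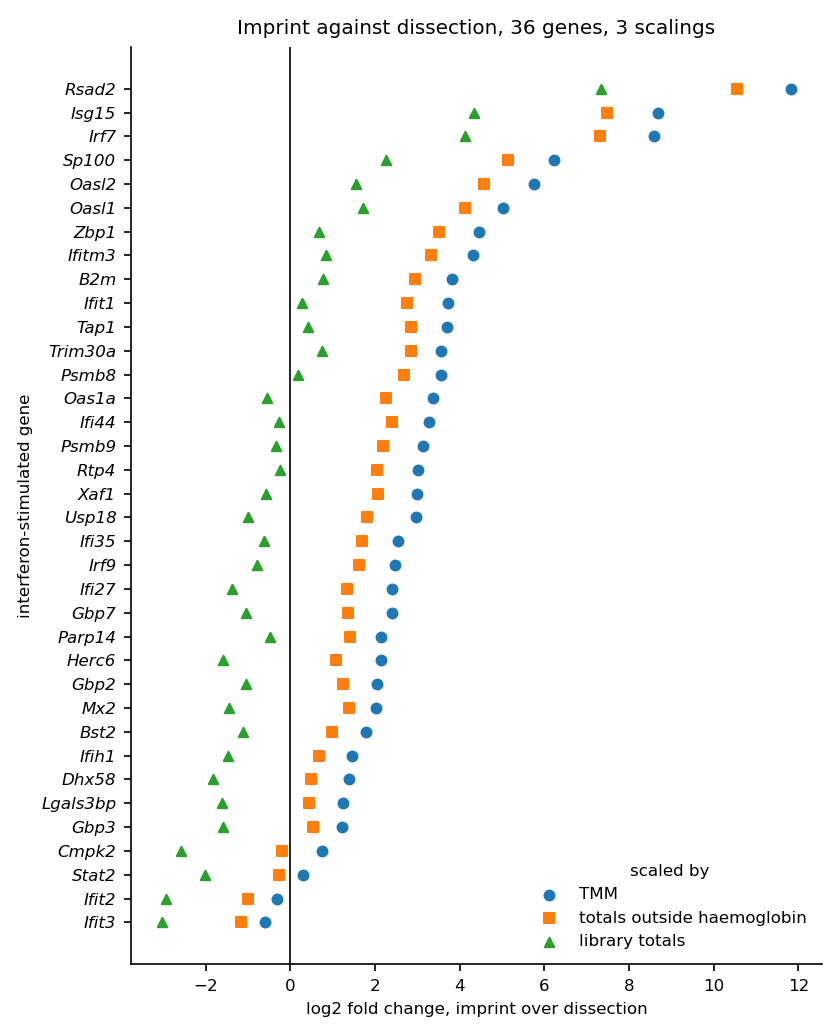
Log2 fold change of imprint over OFC dissection for the 36 members tested under 3 scalings: TMM, totals outside haemoglobin and library totals. Each step moves all members to the left, and by library totals 13 of 36 remain right of 0.

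The genes that bring about and carry the response were followed in 4 further lists that share no gene with the members: ligands and receptors, transducers and regulators, sensors and adaptors, and class I presentation. Of the ligands, Ifna2, Ifna4, Ifne, Ifnl2 and Ifnl3 had 0 counts in all 17 libraries, Ifnb1 had 3 counts in 1 library, Ifng 5 in 1 and Ifnk 1 in 1. The receptor genes Ifnar1, Ifnar2, Ifngr1, Ifngr2 and Il10rb had counts in all 17. In the 3 phenotype comparisons, the regions and their interaction, 0 genes of the 4 lists passed in either direction. Between regions the smallest p was that of H2-D1, a class I heavy chain, with a log2 fold change of 0.51 ± 0.13 toward the OFC (edgeR adjusted p = 0.0512). Tlr3, a sensor of double-stranded RNA, stood at 0.54 ± 0.18 (edgeR adjusted p = 0.15), Irf8, a microglial transcription factor, at 0.49 ± 0.18 (0.215) and Il10rb at 0.41 ± 0.18 (0.291). Toward the mPFC lay Psme1 of the class I list at -0.36 ± 0.13 (edgeR adjusted p = 0.193) and Ifngr1 at -0.16 ± 0.15 (0.706). Positive between regions were 1 of 5 ligand and receptor genes, 8 of 16 transducers and regulators, 11 of 18 sensors and adaptors and 9 of 15 class I genes. In the mPFC, Tlr7, a sensor of single-stranded RNA, was higher in perseverers with a log2 fold change of 1.82 ± 0.56 that did not pass (edgeR adjusted p = 0.943).

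In the imprints against the OFC dissections, after TMM scaling, 3 of 5 ligand and receptor genes were called higher, 10 of 16 transducers and regulators, 9 of 19 sensors and adaptors and 10 of 15 class I genes, against 15.6% of all genes. Called lower were 2 sensors or adaptors and none of the other lists, against 17.9% of all genes. Ifnar2 rose by 2.91 ± 0.42 on the log2 scale (edgeR adjusted p = 5.56e-05), Samhd1, which degrades nucleotides, by 4.27 ± 0.45 (2.87e-06) and H2-D1 by 3.92 ± 0.34 (3.12e-07). These calls changed with the scale as well. By library totals none of the 4 lists had a gene called higher. Called lower were 2 ligand and receptor genes, 4 transducers and regulators, 5 sensors and adaptors and 5 class I genes. On that scale most genes tested were called lower, with a median log2 fold change of -2.82 and 5.42% positive over all genes. By totals outside haemoglobin 3, 5, 9 and 7 genes were called higher, in the same order of lists, and 1, 0, 2 and 2 lower. There the median over all genes was -0.80, with 25.8% positive.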

How the data were processed

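Raw read counts per gene, with a gene length in bases of unit other, were deposited by the authors in 3 tables for 17 libraries (25239 genes each); the values are whole numbers and differ in total between libraries. Per the labels' protocols, total RNA came from a Qiagen micro kit and was prepared with SMART-Seq v4 and Nextera chemistry, which does not keep the strand. FastQC 0.11.8 and mm10 are named in the submitters' processing notes; for aligner, counter and annotation, not given in the sources used here.

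Comparisons used edgeR 4.0.16 (R 4.3.3): filterByExpr, TMM, robust quasi-likelihood fits, two-sided tests, Benjamini-Hochberg adjustment over all genes tested and a threshold of 0.05. Region was fitted on the 12 dissections and imprint against dissection on the 11 OFC libraries, both with phenotype as a term; each phenotype comparison used its own table. The SE was obtained from the fold change and the F statistic. The fits were tested on simulated data. DESeq2 1.42.0, RLE, no filter, a threshold of 0.1, the replicate block, removal of haemoglobin genes and leaving out each library were alternatives; library totals as scale and the joint removal of 2 libraries were chosen after seeing the data. RPKM used the deposited lengths; positions came from RefSeq GRCm38.p6 and shared sequence from GENCODE M21. Folds were given for up to 12 members past the threshold with the smallest p, or filled to 6, and up to 2 genes of each pathway list. Members and lists were chosen with earlier results of these data known.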

Additional observations from a re-analysis of the deposited data

Results flagged for a closer look

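Values of single libraries far from the rest of their group were looked for in 40 sets of libraries and genes, and 9 were found. By chance the rule flags about 1 in 20 sets if the sets are independent. The sets held only members with the smallest p in these same data and a mean of at least 1 CPM. Genes of 1 library also move together, so the 9 cannot be set against that rate. The measure is the gap between the extreme library and its nearest neighbour, as a share of the whole range. In the OFC dissections renouncer 2 was far above the other 5 for Isg15 (0.76), Ifit1 (0.761), Oas1a (0.849) and Rtp4 (0.757), 4 genes of the 1 library described above. In the mPFC, perseverer 3 was high for Gbp2 (0.692) and renouncer 3 for B2m (0.652). Among the imprints, per library total, renouncer 1 was far above the others for Lgals3bp (0.835), Ifitm3 (0.728) and B2m (0.859). It is also the imprint with 29.7% haemoglobin, and on that scale it was highest in 96.4% of 11855 genes.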

How the results depend on the processing

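Between phenotypes and for their interaction with region, 0 genes and 0 members were called under each alternative run. Between regions, 264 genes and 0 members were called, against 525 and 1 at a threshold of 0.1, 698 and 1 with DESeq2, and 1 member (Gbp2) without OFC renouncer 2 and mPFC perseverer 3. Leaving out 1 library at a time gave 120 to 448 genes and 0 to 1 members; the 1 member was Gbp2, without mPFC perseverer 3. The counts fell to 135, 157, 122 and 126 without OFC renouncer 2, OFC renouncer 3, OFC perseverer 1 and OFC perseverer 3, to 165, 120, 152 and 170 without mPFC renouncer 1, mPFC renouncer 2, mPFC perseverer 1 and mPFC perseverer 2, and rose to 448 without mPFC perseverer 3. Imprint against dissection gave 5106 genes and 28 members, 4138 to 5488 and 23 to 31 without 1 library, and 10490 and 7 by library totals. The scale by library totals gave Irf9 -0.80, Psmb9 -0.35 and Xaf1 -0.58 there, and between imprint phenotypes Stat2 -0.81 and Gbp3 -0.59. Leaving out 1 library gave Lgals3bp -1.74 to 0.014 between imprint phenotypes, highest without imprint renouncer 2. It gave Isg15 -1.22 to 0.031, Rtp4 -1.17 to 0.14 and Ifit1 -1.57 to 0.35 in the OFC and Oas1a -4.51 to 0.17 in the interaction, each highest without OFC renouncer 2. The cause of these changes was not tested.

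Libraries of the same replicate number did not deviate from their group means together in every pair. Between OFC and mPFC dissections, these deviations correlated at 0.218, -0.0574 and 0.297 in renouncers and 0.205, 0.616 and 0.628 in perseverers. Different numbers gave -0.378 to 0.237 in renouncers and -0.608 to 0.217 in perseverers. An OFC renouncer and an OFC perseverer library of different numbers reached 0.532. As the labels name no mice, the numbers were not taken as pairs. If they do mark mice, the main region fit ignores that pairing. With the replicate block, the region comparison called 1130 genes and 2 members, Gbp2 (adjusted p = 0.0164) and Ifi27 (adjusted p = 0.0179), imprint against dissection 3924 and 24, and each other comparison 0. Depth limits the imprints most, where 980475 to 6556037 counts lay outside haemoglobin, and the weakly expressed members Mx1, Mx2, Oas2, Oasl1 and Zbp1.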
